A study of Mus musculus with 7 samples.

Results

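Chromatin accessibility was described at the genes for translation initiation and elongation factors in T follicular helper (Tfh) cells, a CD4 T cell type that supports germinal centre B cells. The genes were taken from the peak list by name, as every protein-coding gene whose symbol starts with Eif or Eef, with Eif2ak2, the gene of the interferon-induced kinase PKR, left out by that rule. This gave 25 genes with 26 peaks, of 4663 protein-coding gene names and 6395 peaks in the list. Because a gene enters only when it has a listed peak, the peaks are also set against the whole family of 71 such genes in the RefSeq annotation.

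The cells were sorted from spleens of B6/Sle1.Yaa mice aged 5 months, by the surface phenotype CD4+CD44+GITR-, PSGL-1 low, CXCR5 high and PD-1 high. The anti-IFNAR1 group had 4 samples and the control anti-rat IgG group 3, each dosed 2 times a week for 4 weeks. The treatment labels spell the target IFNA1 and the series title spells it IFNAR1, a chain of the type I interferon receptor. Both groups carry the lupus-prone Sle1 interval and the Yaa translocation, so neither stands for a healthy strain, and the labels do not say whether a sample is 1 mouse or several.

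The assay was ATAC-seq, which uses a transposase to tag open DNA. The file is 1 list of peaks with more coverage on the anti-IFNAR1 side than on the control IgG side, with no value per sample, so no spread between mice can be given. Pileup, fold and q are the authors' own values in their deposited table. The pileup is the number of fragments over the summit, scaled to control depth, the fold divides it by the local control IgG background after adding 1 to both, and q is the false discovery rate of their caller. The anti-IFNAR1 side held 3.54 times the fragments of the control side, where equal libraries would give 1.33. Peaks higher in control IgG were not analysed here. Of the cell type markers, 8 of 11 Tfh genes and 2 of 8 myeloid genes had a listed peak. It was 0 of 8 for B cell genes and 0 of 6 for CD8 T and NK cell genes, beside 21.1% of all protein-coding genes. The Tfh list also holds the T cell genes Cd4 and Cd3e. A listed peak means more coverage on the anti-IFNAR1 side, so these counts do not measure which cells were present. The part of other cells in the results was not tested. In bulk samples, a change in the mix of cells and a change within each cell cannot be told apart.

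Initiation starts when eIF2 brings the initiator tRNA to the small ribosomal subunit, with eIF1, eIF1A, eIF3 and eIF5 bound to it. The eIF4 factors bind the cap of the mRNA and unwind its leader, eIF2B recharges eIF2 with GTP, and the elongation factors eEF1 and eEF2 then carry the ribosome along the message. Stress kinases that phosphorylate eIF2 and the mTORC1 target 4E-BP hold initiation back. Activated T cells raise protein synthesis when they grow and divide.

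Of the 71 translation factor genes, 25 had a listed peak (35.2%, Wilson 95% interval 25.1 to 46.8, counting error only), beside 21.1% of all 21887 protein-coding genes. By complex, the count was 6 of 9 for the eIF2 group, which holds the subunits, the kinases and the separate factors Eif2a and Eif2d, 8 of 17 for eIF4, 2 of 4 for eIF5 and 2 of 5 for eIF1. It was 4 of 16 for elongation, 3 of 14 for eIF3, 0 of 5 for eIF2B and 0 of 1 for eIF6. Groups this small have wide intervals, for example 35.4 to 87.9% for the eIF2 group and 0 to 43.5% for eIF2B, and no test of a difference between complexes was made. Genes that act in T cells and genes that are closed in them both count in the share of all genes.

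**Figure D1:**
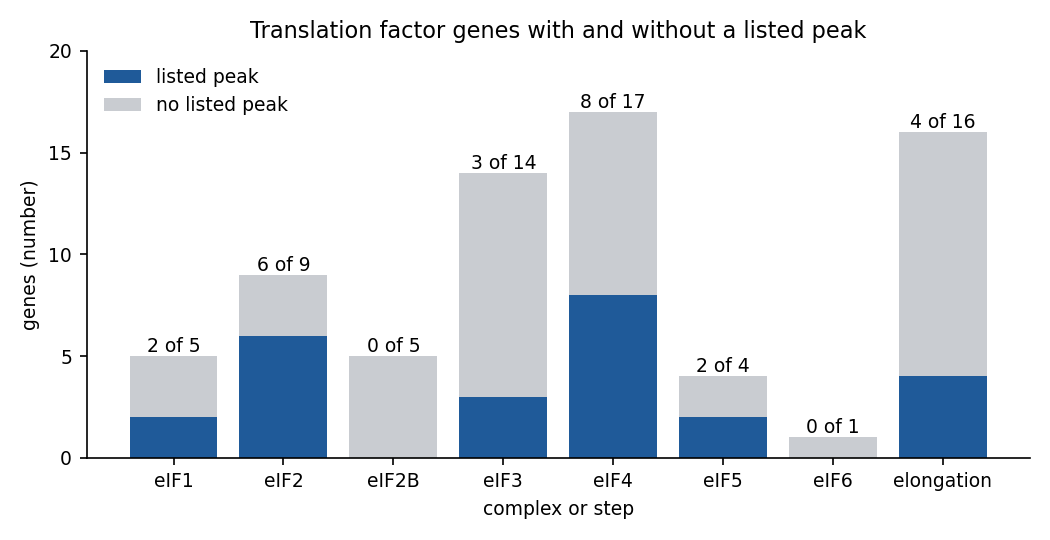
Number of translation factor genes (vertical axis) in each complex or step (horizontal axis), with a listed peak in blue and without one in grey. The eIF4 genes hold the most listed members, 8 of 17, and none of the 5 eIF2B genes is listed.

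The 46 genes without an assigned peak were spread over every complex. Of the eIF2 group these were Eif2s1, which encodes the alpha subunit that the stress kinases phosphorylate, the Y-linked gamma subunit gene Eif2s3y, and Eif2d. All eIF2B genes from Eif2b1 to Eif2b5 were among them, as was Eif6. Of eIF3 they were Eif3d, Eif3e, Eif3f, Eif3g, Eif3h, Eif3i, Eif3j1, Eif3j2, Eif3k, Eif3l and Eif3m. Of eIF4 they were the cap-binding gene Eif4e, the scaffold gene Eif4g1, Eif4b, Eif4a3l1, Eif4e1b, Eif4e2, Eif4ebp1, Eif4ebp3 and Eif4enif1. Eif1a, Eif1ad, Eif1b, Eif5a and Eif5b also had none. Of elongation they were Eef2, the translocase gene, its kinase gene Eef2k, Eef1a2, Eef1b2, Eef1g, Eef2kmt, Eef1aknmt, Eef1akmt1, Eef1akmt2, Eef1akmt3, Eef1akmt4 and the readthrough gene Eef1akmt4-ece2. A gene without a listed peak may still be open to the same degree on both sides.

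Most translation factor peaks were promoter peaks. By the section named in the file, 22 of 26 were at a transcription start site (TSS, 84.6%), beside 72.4% of all listed peaks. Of the other translation factor peaks, 3 were in introns and 1 was in a coding exon. All listed peaks include 702 intergenic peaks (10.98%), a section that held 0 translation factor peaks. The translation factor peaks were chosen by protein-coding gene name, so the 84.6% and 72.4% are not shares of like sets. The TSS share without intergenic peaks was not computed, and a promoter excess of the family was not tested. RefSeq promoter windows (GRCm38.p6, the build mm10; 250 bases before to 50 after the start) were found for 22 of the 25 genes and not for Eef1d, Eif4e3 and Eif4g2. The windows below are those of which the listed peak covers more than 200 bases, so the letters are mainly DNA inside the peaks described below. The peak covers all 300 bases for Eif2a, Eif2ak1, Eif3b, Eif3c and Eif4ebp2, 248 for Eif5a2 and 205 for Eif2s3x. Capitals mark matches to the motifs named after the sequences.

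The windows, each read 5′ to 3′ on the strand of its gene, lie at chr3:58525571-58525870 (plus strand) for Eif2a, chr5:143817542-143817841 (plus) for Eif2ak1, chr5:140419055-140419354 (plus) for Eif3b, chr7:126566317-126566616 (minus) for Eif3c, chr10:61452620-61452919 (minus) for Eif4ebp2, chr3:28781027-28781326 (plus) for Eif5a2 and chrX:94212602-94212901 (minus) for Eif2s3x.
Eif2a: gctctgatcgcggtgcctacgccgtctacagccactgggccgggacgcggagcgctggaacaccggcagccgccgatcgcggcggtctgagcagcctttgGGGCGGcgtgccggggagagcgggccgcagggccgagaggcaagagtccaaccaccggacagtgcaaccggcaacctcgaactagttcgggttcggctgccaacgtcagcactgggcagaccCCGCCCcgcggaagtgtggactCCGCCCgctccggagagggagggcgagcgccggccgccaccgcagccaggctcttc
Eif2ak1: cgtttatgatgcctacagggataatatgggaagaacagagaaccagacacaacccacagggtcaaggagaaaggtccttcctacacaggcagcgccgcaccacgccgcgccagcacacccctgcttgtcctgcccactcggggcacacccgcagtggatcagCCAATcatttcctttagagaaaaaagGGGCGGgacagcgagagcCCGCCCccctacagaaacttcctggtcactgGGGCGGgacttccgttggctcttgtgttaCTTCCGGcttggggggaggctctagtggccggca
Eif3b: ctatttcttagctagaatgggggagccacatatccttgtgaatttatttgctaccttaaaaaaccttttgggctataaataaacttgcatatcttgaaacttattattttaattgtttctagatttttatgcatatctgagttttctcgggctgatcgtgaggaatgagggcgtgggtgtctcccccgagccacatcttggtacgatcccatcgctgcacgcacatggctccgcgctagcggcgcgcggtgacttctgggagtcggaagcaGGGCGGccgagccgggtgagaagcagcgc
Eif3c: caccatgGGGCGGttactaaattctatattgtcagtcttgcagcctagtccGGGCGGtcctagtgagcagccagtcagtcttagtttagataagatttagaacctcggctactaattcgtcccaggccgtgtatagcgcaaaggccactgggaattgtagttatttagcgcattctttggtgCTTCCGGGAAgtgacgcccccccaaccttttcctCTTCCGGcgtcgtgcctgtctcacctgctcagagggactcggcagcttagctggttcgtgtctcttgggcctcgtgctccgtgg
Eif4ebp2: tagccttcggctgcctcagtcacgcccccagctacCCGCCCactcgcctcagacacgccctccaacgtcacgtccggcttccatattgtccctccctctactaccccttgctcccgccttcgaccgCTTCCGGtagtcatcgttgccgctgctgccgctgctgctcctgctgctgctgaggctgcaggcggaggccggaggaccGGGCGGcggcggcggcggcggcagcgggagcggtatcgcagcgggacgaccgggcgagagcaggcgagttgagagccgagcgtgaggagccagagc
Eif5a2: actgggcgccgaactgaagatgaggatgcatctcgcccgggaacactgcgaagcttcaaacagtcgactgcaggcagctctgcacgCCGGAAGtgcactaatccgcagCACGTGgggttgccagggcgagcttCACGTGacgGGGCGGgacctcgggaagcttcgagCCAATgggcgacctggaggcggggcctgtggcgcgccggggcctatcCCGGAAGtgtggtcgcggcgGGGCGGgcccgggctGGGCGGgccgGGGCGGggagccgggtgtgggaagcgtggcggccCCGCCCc
Eif2s3x: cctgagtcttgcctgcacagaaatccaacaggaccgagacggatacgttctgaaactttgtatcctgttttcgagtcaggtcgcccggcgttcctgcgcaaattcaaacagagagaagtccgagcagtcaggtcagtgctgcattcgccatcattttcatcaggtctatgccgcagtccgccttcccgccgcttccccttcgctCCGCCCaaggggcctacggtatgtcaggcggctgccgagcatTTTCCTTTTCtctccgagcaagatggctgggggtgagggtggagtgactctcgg

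The motifs were searched on both strands, and matches of different motifs may overlap. The counts are over all 22 genes with a window, whether or not the listed peak covers it. The peak covers 0 bases of the windows of Eif4a1, Eif4a2, Eif4a3, Eif4g3, Eif4h, Eif5 and Eef1e1. The counts thus describe promoter windows, and only matches in the printed windows were placed relative to the peaks. The GC box (GGGCGG), bound by SP and KLF factors, was in 19 of 22 translation factor windows, beside 75.7% of 3332 genes with a listed TSS peak and 38.2% of all 27025 genes with a window. The ETS motif (CCGGAAG) was in 5 of 22, beside 19.9% and 9.93% of the same sets. The NRF1 motif (GCGC, any 1 base, TGCGC) was in 4 of 22, beside 12.9% and 5.19%. The E-box bound by MYC (CACGTG) was in 4 of 22, beside 12.3% and 8.09%. The CCAAT box (CCAAT) was in 7 of 22, beside 45.0% and 41.1%. These are matches of letters, not sites shown to be bound.

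The motifs of interferon and cytokine signalling were searched in the same windows, and their counts are small. The interferon-response element (ISRE: GAAA, any 2 bases, GAAA) was in 2 of 22 (9.09%), Eif3a and Eif2s3x. It was in 3.39% of genes with a listed TSS peak and 3.99% of all. In the Eif2s3x window the match spans the gene start, with its first base 4 bases before it. That match has 0 bases inside the listed peak, which lies upstream, and the GC box match in the same window has 1 base inside it. All other matches in the printed windows lie wholly inside the peaks. The STAT motif (GAS, TTCNNNGAA) was in 3 of 22 (13.6%), Eef1e1, Eif2ak3 and Eif3c, beside 7.17% and 9.55%. For both motifs the share lay above those of the larger sets, on counts of 2 and 3 genes, and the difference was not tested. In the Eif3c window the GAS match begins 67 bases before the start and overlaps an ETS match that begins 68 bases before it. The Eif5a2 window held 5 GC box matches, 2 ETS matches and 2 E-box matches.

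The folds and pileups of the translation factor peaks lay within the range of the list, with medians close to those of all peaks. Their median fold was 4.65 (lowest 3.29, highest 8.55), beside 4.74 over all 6395 peaks, and 12 of 26 lay above the median of the list. Their median pileup was 12.4 (5.09 to 26.9), beside 11.6, and 14 of 26 lay above that median. In whole fragments the median was 44 on the anti-IFNAR1 side, beside 41 over the list, and in peak length 538 bp, beside 539 bp. The median of the control IgG background was 2.00, beside 1.49 over the list and 2.00 over the 4237 protein-coding TSS peaks. By q, 24 of the 26 peaks were at or below 0.01, beside 82.4% of all listed peaks.

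For each peak the fragments were also set against the control fragments that gave the background, as a ratio scaled for depth with an exact 95% interval. Every listed peak was chosen for high coverage over the same background, so these ratios are tilted upwards, and their intervals cover the counting of fragments alone. The control background came from the site itself for 11 of the 26 peaks, from 1 kb around it for 12, from 10 kb for 1 and from the genome rate for 2. At 9 peaks the control side had 0 fragments at the site itself, beside 31.6% of all listed peaks. All 26 intervals lay above 1, as did 100% of those over the whole list, so this count says nothing particular about the translation factors. With the control fragments at the site alone, it was again 26 of 26, beside 96.2% over the list.

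**Figure D2:**
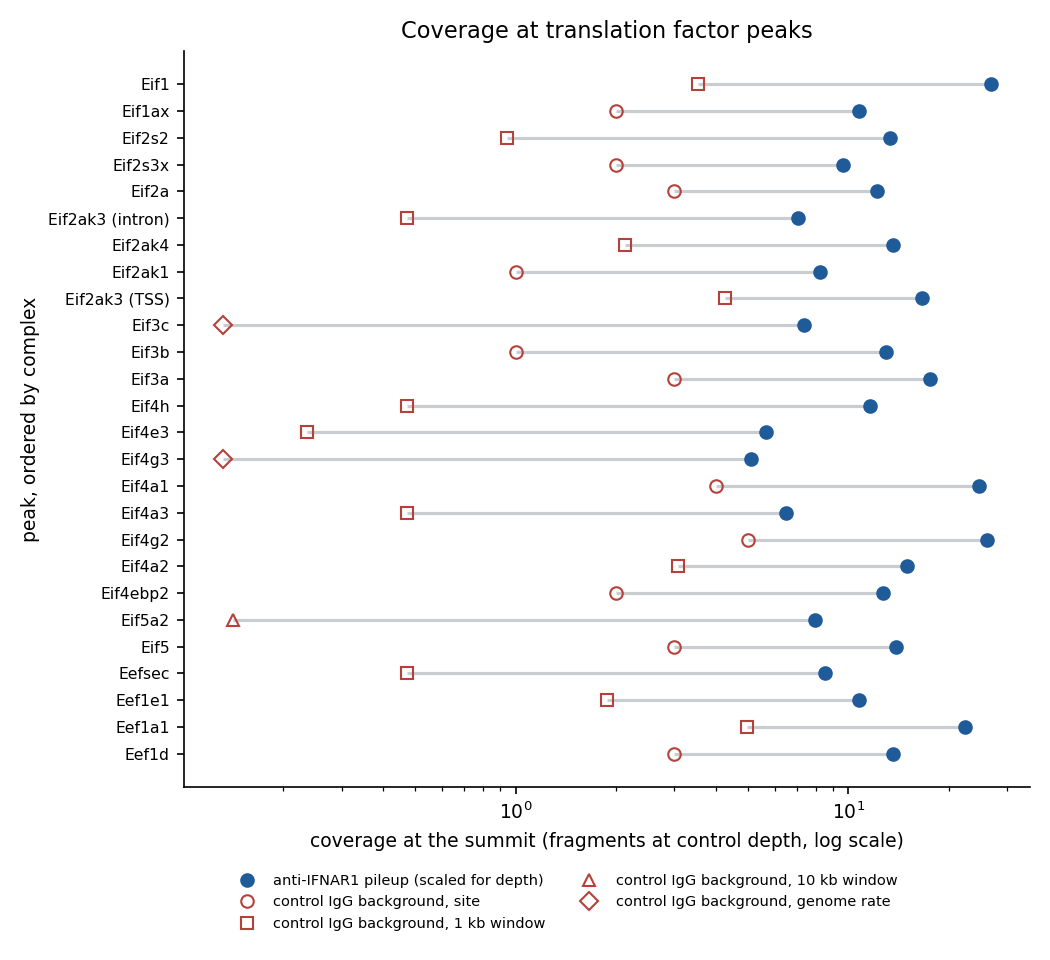
Coverage at the summit of each of the 26 peaks (rows, ordered by complex) in fragments at control depth on a log axis, with the anti-IFNAR1 pileup as filled blue points and the control IgG background as open red symbols by its source. Eif1, Eif4g2, Eif4a1 and Eef1a1 have the highest pileups, 22.3 to 26.9, and Eif3c and Eif4g3 have a background at the genome rate of 0.132.

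Of the eIF1 genes, which guard the choice of the start codon, Eif1 and Eif1ax were listed. The Eif1 peak, on chromosome 11 from 100319938 to 100320511, had the highest pileup of the family, 26.9, and the smallest q, 5.59e-11, at rank 320 of 6395. Its coverage was 95 anti-IFNAR1 fragments against 15 control fragments in 1 kb, a background of 3.54, with a fold of 6.14 and a ratio of 7.59 (4.38 to 14.1). Relative to the RefSeq start of Eif1, the peak ran from -11 to 562 bp, where negative positions are upstream. Eif1ax, the X-linked eIF1A gene, had 38 anti-IFNAR1 fragments and 2 control fragments at the site (chromosome X, 159372171 to 159372620), with a pileup of 10.7, a fold of 3.91, a q of 0.00897 and a ratio of 5.37 (1.39 to 46.0).

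Of the eIF2 subunit genes, Eif2s2 stood highest. Its TSS peak, on chromosome 2 from 154892431 to 154892910, had 47 anti-IFNAR1 fragments over a background of 0.944, or 4 control fragments in 1 kb and 0 at the site. The pileup was 13.3, the fold 7.35, the q 2.27e-08 and the ratio 14.1 (5.15 to 53.8). Eif2s2 encodes the beta subunit, which contacts eIF5 and eIF2B. Eif2s3x, the X-linked gene of the GTP-binding gamma subunit, had 34 anti-IFNAR1 fragments and 2 control fragments, a pileup of 9.61, a fold of 3.54 and the largest q of the family, 0.0352. Its peak ran from -537 to -46 bp relative to the RefSeq start, wholly upstream of that start. The authors' own distance to a TSS was 0 for this peak.

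Eif2a encodes a separate factor that can deliver initiator tRNA without GTP. Its TSS peak had the lowest fold of the family, 3.29, on chromosome 3 from 58525380 to 58525873, with 43 anti-IFNAR1 fragments and 3 control fragments at the site, a pileup of 12.2, a q of 0.0137 and a ratio of 4.05 (1.30 to 20.4). The summit lay 19 bp from the start of Serp1, a gene on the other strand for a protein of the endoplasmic reticulum, so the fragments belong to a shared start and cannot be divided between the 2 genes.

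The 3 eIF2 kinase genes counted here had a listed peak, beside 21.1% of all protein-coding genes. Eif2ak2, the fourth, had 0 peaks in the file. The choice by name leaves it out, so the counts and interval of the eIF2 group above do not hold it. Eif2ak4 encodes GCN2, the sensor of amino acid shortage, and its TSS peak had 48 anti-IFNAR1 fragments where the control background was 2.12, with a fold of 4.66 and a pileup of 13.6. Eif2ak1, the gene of the heme-regulated kinase HRI, had 29 anti-IFNAR1 fragments and 1 control fragment at the TSS, a fold of 4.60 and a pileup of 8.20. Eif2ak3, the gene of PERK, the kinase of endoplasmic reticulum stress, was the one gene with 2 peaks. Its TSS peak had a pileup of 16.7, with 59 anti-IFNAR1 fragments where the control background was 4.25, and a fold of 3.37. Its second peak lay in intron 2, on chromosome 6 from 70871729 to 70872280, with the summit 27660 bp into the gene. There 25 anti-IFNAR1 fragments stood over a background of 0.472, or 2 control fragments in 1 kb and 0 at the site, with a pileup of 7.07, a fold of 5.48, a q of 9.60e-05 and a ratio of 15.0 (3.73 to 130.4). The intron peak thus had the lower pileup and the higher fold of the 2 PERK peaks.

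Of eIF3, the largest initiation factor, the genes Eif3a, Eif3b and Eif3c were listed, and their products form the core on which other subunits assemble. Eif3c, on chromosome 7 from 126565937 to 126566743, had 26 anti-IFNAR1 fragments, a pileup of 7.35, a fold of 7.38, and its q was 2.27e-08. Its control background was the genome rate of 0.132, with 0 control fragments at the site, and its ratio of 55.7 (36.4 to 81.6) holds no control noise. Eif3b had 46 anti-IFNAR1 fragments and 1 control fragment at the TSS, with a pileup of 13.0 and a fold of 7.0. Its ratio of 13.0 had an interval of 2.22 to 524.6, since it rests on 1 control fragment. Eif3a, the gene of the largest scaffold subunit (chromosome 19, 60790103 to 60790721), had 62 anti-IFNAR1 fragments and 3 control fragments, a pileup of 17.5, a fold of 4.63, a q of 1.30e-05 and a ratio of 5.84 (1.91 to 29.1).

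Of the eIF4 genes, Eif4h had the highest fold of the family. Its product stimulates the helicase eIF4A, and its TSS peak, on chromosome 5 from 134638742 to 134639308, had 41 anti-IFNAR1 fragments over a background of 0.472, or 2 control fragments in 1 kb and 0 at the site. The pileup was 11.6, the fold 8.55, the q 2.60e-09 and the ratio 24.6 (6.38 to 209.6). The helicase gene Eif4a1 had 87 anti-IFNAR1 fragments and 4 control fragments at the site, a pileup of 24.6 and a fold of 5.12. Its paralog Eif4a2 (chromosome 16, 23107549 to 23108194) had 53 anti-IFNAR1 fragments where the control background was 3.07, a pileup of 15.0, a fold of 3.93, a q of 0.00127 and a ratio of 4.88 (2.63 to 9.77). The intervals of the ratios at these 2 helicase genes overlap, and their difference was not tested.

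The scaffold gene Eif4g2 encodes DAP5, which lacks the binding site for eIF4E. Its peak was the longest of the family at 1017 bp, with 92 anti-IFNAR1 fragments and 5 control fragments, a pileup of 26.0 and a fold of 4.50. Eif4ebp2, the gene of an eIF4E inhibitor controlled by mTORC1, had 45 anti-IFNAR1 fragments and 2 control fragments, a pileup of 12.7 and a fold of 4.57. The remaining eIF4 peaks lay outside the TSS section and had low pileups with a background below 1. Eif4e3, a cap-binding gene, had a peak in intron 1 of the transcript in the file (chromosome 6, 99665967 to 99666433), 339 bp from its start and 26441 bp from the start of the longer RefSeq gene. It held 20 anti-IFNAR1 fragments over 1 control fragment in 1 kb, with a pileup of 5.65, a fold of 5.38, a q of 0.000372 and a ratio of 24.0 (3.83 to 993.0).

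Eif4g3, the gene of a second large scaffold, had its peak in intron 9 (chromosome 4, 138107954 to 138108235), with the summit 116342 bp into the gene. The 18 anti-IFNAR1 fragments were the fewest of the family, over the genome rate, with a pileup of 5.09, a fold of 5.38, a q of 2.10e-05 and a ratio of 38.6 (22.9 to 61.0) that holds no control noise. Eif4a3, the gene of the helicase of the exon junction complex, had its peak in coding exon 1 (chromosome 11, 119299443 to 119299845), with the summit 219 bp from the gene start. It held 23 anti-IFNAR1 fragments over 2 control fragments in 1 kb, with a pileup of 6.50, a fold of 5.10, a q of 0.00105 and a ratio of 13.8 (3.40 to 120.5). The 4 peaks outside the TSS section had pileups of 5.09 to 7.07, below the lowest TSS pileup of the family, 7.35, while their folds, 5.10 to 5.48, lay above the TSS median of 4.59. Their backgrounds were 0.132 to 0.472. A peak with a low pileup passes the q cutoff only over a low background, so part of this contrast follows from the cutoff. The same limit holds for the other peaks described here with a low pileup and a high fold.

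**Figure D3:**
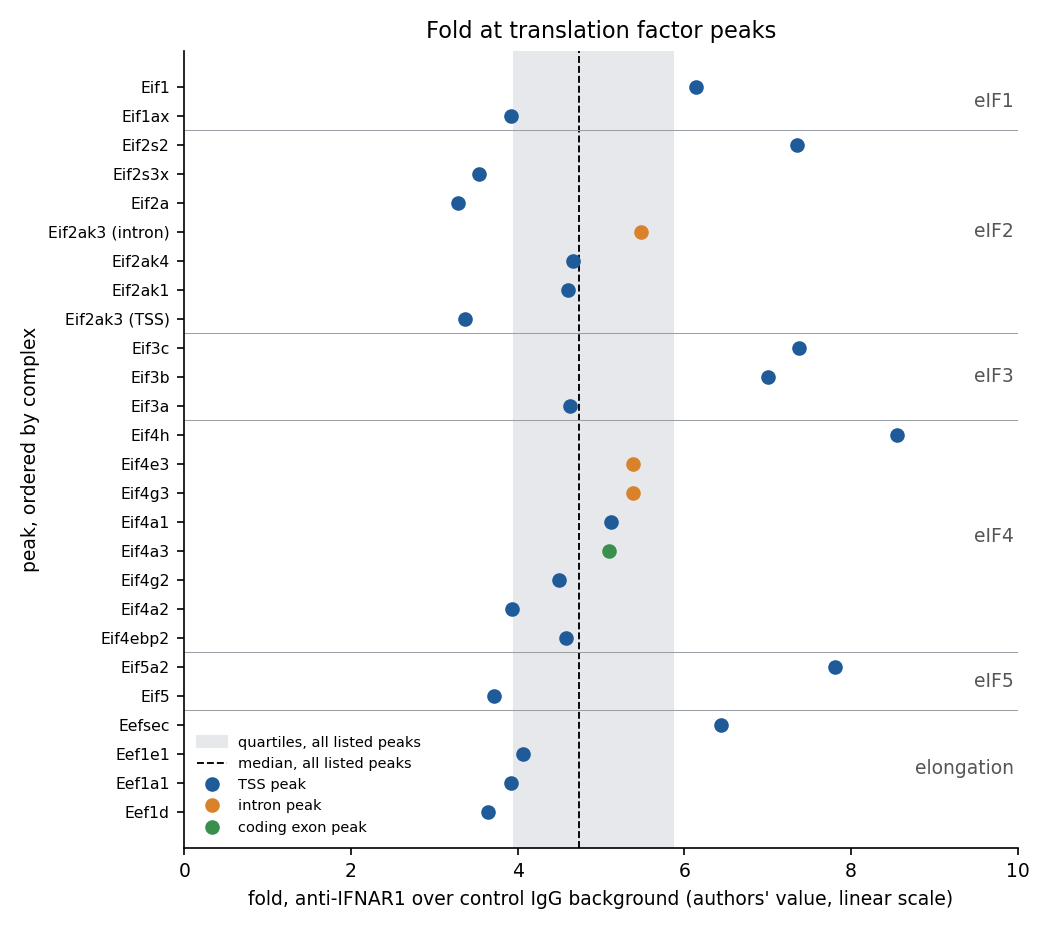
Fold of each of the 26 peaks over the control IgG background (horizontal axis, linear, the authors' values), with rows ordered by complex and points coloured by gene section. The dashed line is the median of all listed peaks, 4.74, and the grey band their quartiles, 3.95 to 5.86. Eif4h, Eif5a2, Eif3c, Eif2s2, Eif3b, Eefsec and Eif1 lie to the right of the band.

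Of the eIF5 genes, Eif5a2 and Eif5 were listed. Eif5a2, a second gene for the hypusine-bearing factor eIF5A, had 28 anti-IFNAR1 fragments over a background of 0.142, or 6 control fragments in 10 kb and 0 at the site (chromosome 3, 28781079 to 28781764). The fold was 7.81, the q 3.38e-08 and the ratio 55.9 (22.7 to 165.1), with a pileup of 7.92. A start of the noncoding gene 1700112D23Rik on the other strand lay 277 bp from its summit. Eif5, the gene of the GTPase activator of eIF2, had 49 anti-IFNAR1 fragments against 3 from control, with a pileup of 13.9, a fold of 3.71, a q of 0.00415 and a ratio of 4.62 (1.49 to 23.2). That peak, on chromosome 12 from 111537529 to 111537822, ran from -572 to -279 bp relative to the RefSeq start of Eif5. Eif5a2 thus had the lower pileup and the higher fold, over a control background that was lower than at Eif5.

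Of the elongation genes, grouped by symbol, 4 of 8 factor genes were listed and 0 of 8 kinase and methyltransferase genes, beside 21.1% of all protein-coding genes. The 0 depends on how peaks were assigned. Listed peaks over the start of Eef2kmt and over the start shared by Eef1akmt4 and Eef1akmt4-ece2 were assigned to neighbouring genes. Eefsec encodes the factor that brings selenocysteine to the ribosome, and its TSS peak (chromosome 6, 88446088 to 88446613) had 30 anti-IFNAR1 fragments over a background of 0.472, with a pileup of 8.48, a fold of 6.44, a q of 8.10e-06 and a ratio of 18 (4.56 to 155.2). Eef1a1, the gene of the abundant factor that delivers aminoacyl-tRNAs, had 79 anti-IFNAR1 fragments over a background of 4.96, or 21 control fragments in 1 kb. Its pileup was 22.3, its fold 3.92 and its q 1.21e-05. Eef1e1, counted as a factor gene by its symbol alone, encodes a small protein of the tRNA synthetase complex. It had 38 anti-IFNAR1 fragments over a background of 1.89, with a pileup of 10.7 and a fold of 4.07. No source used here states whether reads that also match near-identical copies, such as pseudogenes of Eef1a1, were kept. Eef1d, the gene of an exchange subunit that recharges eEF1A (chromosome 15, 75909317 to 75909656), had the lowest fold of the group, 3.64, with 48 anti-IFNAR1 fragments and 3 control fragments at the site, a pileup of 13.6, a q of 0.00415 and a ratio of 4.52 (1.46 to 22.7). Eefsec stood above the other 3 by fold and below them by pileup.

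Most TSS peaks had their summit downstream of the RefSeq start, at a share close to that of the larger set. Of the 22 TSS peaks, 17 had the summit downstream of the RefSeq start (77.3%), beside 74.3% of 4191 protein-coding TSS peaks matched to RefSeq. The median offset was 172 bp, from -413 bp at Eif2s3x to 614 bp at Eif4a1, beside a median of 175 bp. The peak covered the start itself at 13 of the 22 genes, beside 42.8% of the larger set. These positions use the outer end of the RefSeq gene. The promoter windows printed above use a transcript start, which differs from it by 121 bp at Eif4ebp2 and by 245 bp at Eif5a2. The Eif5a2 peak does not cover the outer end of the gene and does cover the start of its window. The authors' own distances to a TSS differ too. They were negative, for upstream, at Eif4g2 (-363 bp), Eef1a1 (-331 bp), Eif2ak4 (-225 bp), Eif2a (-170 bp) and Eef1d (-25 bp), whose summits count as downstream here. A start of another gene lay within 1 kb of the summit at 2 of 22, Eif2a and Eif5a2, beside 19.9%.

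**Figure D4:**
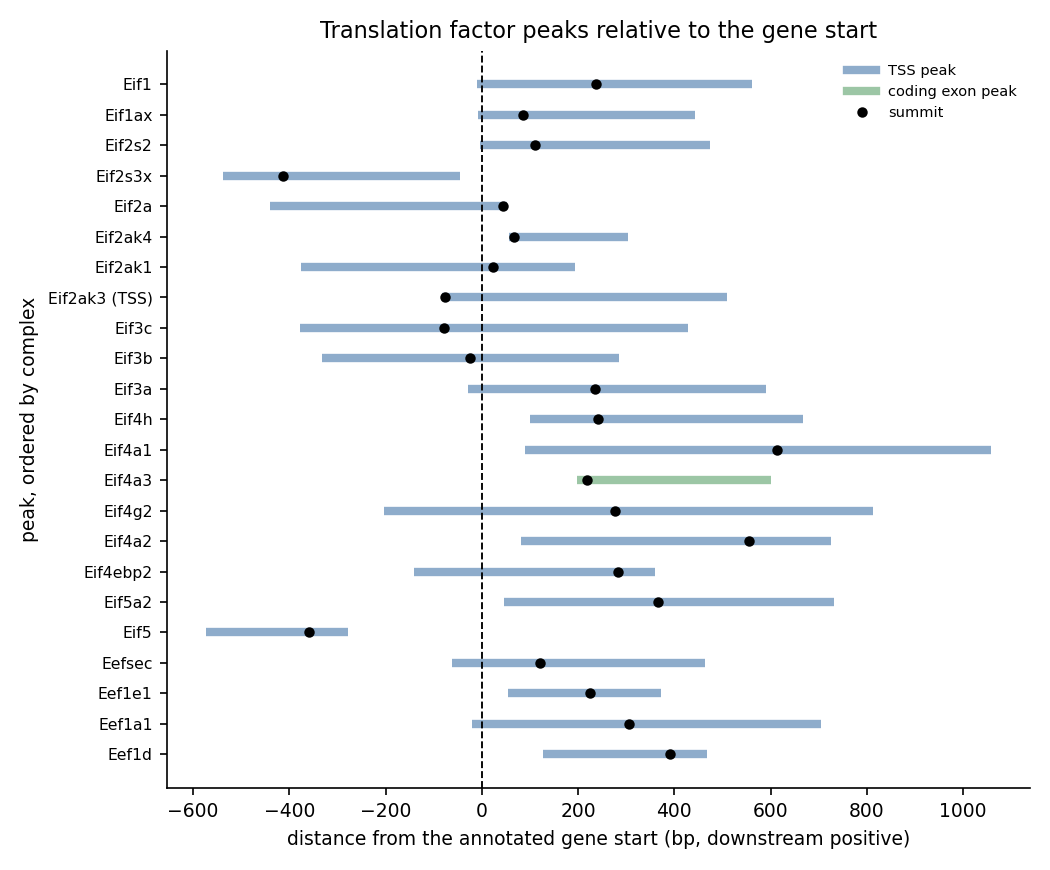
Position of the peaks relative to the RefSeq start of the gene (horizontal axis, bp, downstream positive), for the 22 TSS peaks and the coding exon peak of Eif4a3. Bars are the peaks and black points their summits. Most summits lie to the right of the dashed line at the gene start, and the Eif2s3x and Eif5 peaks lie wholly upstream.

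Some family genes had a peak at their start that the file gave to a neighbour. Of the 46 genes without an assigned peak, 6 had the edge of a listed peak within 500 bp of their start (13.0%). The share by this measure was not computed over all protein-coding genes, so the count says nothing particular about the family. The peak over the start of Eif5b, the gene of the factor that joins the ribosomal subunits, was assigned to Txndc9, with 85 anti-IFNAR1 fragments against a control level of 4.25, at a fold of 4.77. A peak 172 bp from the start of Eif3k was assigned to Map4k1, with 93 fragments over a background of 5.19 and a fold of 4.41. The peak over the start shared by Eef1akmt4 and Eef1akmt4-ece2 was assigned to Ece2, with 26 fragments over a background of 0.142 and a fold of 7.31. The others were Eef2kmt, whose peak went to Gm15983 with a fold of 4.16, and Eif1ad, whose peak went to Banf1 with a fold of 3.67. When any peak within 5 kb of the gene counted, 34 of 71 family genes (47.9%) had one, beside 29.1% of all protein-coding genes.

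Other genes of the translation machinery were counted from lists chosen with earlier results of these data known, as the share with a listed peak beside the 21.1% of all protein-coding genes. Of the partners at the mRNA cap, tail and scanning ribosome, 10 of 13 were listed. Pabpc4, a gene of a poly(A)-binding protein, had the highest fold, 14.2, from 54 anti-IFNAR1 fragments and a control background of 0.142, and the RNA helicase gene Ddx3x followed with 7.85. Of the genes of the integrated stress response, the pathway of eIF2 phosphorylation, and its regulators, 5 of 9 were listed, led by Trib3, a feedback inhibitor gene, with a fold of 6.36 and the adaptor gene Nck1 with 5.51. Atf4, the transcription factor of this response, had a fold of 5.28.

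Of the mTORC1 and eIF4E signalling genes, 6 of 14 were listed, led by Mknk2, the gene of a kinase of eIF4E, with a fold of 4.88 and the ribosomal protein gene Rps6 with 4.59. Of the cytosolic aminoacyl-tRNA synthetase genes, 8 of 22 were listed, led by Farsb with 6.38 and Sars with 6.11. Of the termination and recycling genes, 4 of 12 were listed, led by the release factor gene Gspt1 with 5.32 and Abcf1 with 5.31. Of the genes that modify elongation factors, 3 of 9 were listed, led by Dhps, the gene of the first enzyme of hypusine synthesis, with 5.20 and Dph5, a gene of diphthamide synthesis, with 4.32. The median fold of these lists ran from 3.90 for mTORC1 and eIF4E signalling to 5.43 for the synthetases, beside 4.74 over the whole list.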

How the data were processed

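The data were 1 peak list from ATAC-seq of 7 samples, with columns as MACS2 writes them and a gene and section for each peak. The tools named in the submitters' processing notes are bedtools, DESeq2, DiffBind 2.0.7, MACS2 2.1.0.20150420 and BWA 0.7.9a, with the build mm10. Their roles and order are not given. Cut-site shifting, duplicates, multi-mapping reads and the libraries on each side are not given in the sources used here. In the peak names IFN is set against Ig, and pooling of each group was assumed.

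The pileup is a coverage signal and the fold enrichment a ratio, both as deposited by the authors per the file headers. The headers of 2 deposited columns were damaged. They were read as the authors' −log10 p-value and −log10 q-value, and Poisson values recomputed for every peak were within 0.000125 of the first. The q was taken as deposited.

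Every pileup was, within 0.0051, a whole multiple of 1 step of about 0.2827, which gave whole anti-IFNAR1 fragments. Solving the fold for its denominator, less a pseudocount of 1, gave the background. It was read, within 0.003 (0.006 for the 10 kb window), as control fragments at the site, in 1 kb or in 10 kb around it, in that order, with a fragment length of 236 bp, or as the genome rate of 0.132. Ratios have exact conditional binomial intervals, or Poisson ones without control noise at the genome rate. Depth per sample is unknown. PCR copies are not independent molecules. The recovery was tested on simulated data.

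The design assumed no values per sample, and no test was run, since every listed peak is past a q of 0.05. Gene names were matched to RefSeq (GRCm38.p6) for 4606 of 4663 protein-coding names. Members and gene lists were chosen with earlier results of these data known. Every member is named. Full values are given for the highest and lowest fold of each complex, the highest pileup and every peak outside a TSS, and the 2 highest folds of each further list are named. Atf4 and the peaks at neighbouring genes were chosen after their values were seen. Python 3.11.15 with pandas 2.3.3 and scipy 1.17.1 was used.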

Additional observations from a re-analysis of the deposited data

How the results depend on the processing

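A q of 0.01 left 23 of the 71 family genes with a listed peak (32.4%), beside 18.1% of all protein-coding genes. A fold of at least 4 left 18 of 71, beside 16.0% of all. TSS peaks alone left 22 of 71 (31.0%), beside 18.5% of all, and factors without their regulators gave 21 of 56. A peak within 5 kb of the gene gave 34 of 71 (47.9%), beside 29.1% of all. With a pileup of at least 20, 4 of the 71 genes were left, Eif1, Eif4g2, Eif4a1 and Eef1a1. All of them were at a TSS (100%), with a median pileup of 25.3. The same filter left 3.21% of all protein-coding genes, a TSS share of 92.0% and a median pileup of 23.2 over the list, and fewer peaks by construction. The TSS share of 84.6% ran from 77.8% with a fold of at least 4 to 92.3% for peaks within 1 kb of a TSS under the other settings. Over all listed peaks the TSS share was 71.9% with that fold. With a q of 0.01 it was 83.3% for the translation factors and 75.5% over all. The shares over all listed peaks were not limited to peaks of protein-coding genes, so these are not like sets. The 92.3% counts by distance rather than by section, and its share over the list was not computed. The median fold ran from 4.63 with 1 peak per gene to 5.38 with a fold of at least 4. The same fold filter gave a median of 5.23 over all listed peaks, and a q of 0.01 gave 4.88 for the translation factors and 5.04 over all. All 26 ratio intervals lay above 1 with the caller's window and at the site alone, where unknown control fragments, at 6 peaks, took the highest whole number under the background. No paired analysis was possible because the file holds no value per sample, and leaving out each replicate was not run for the same reason. Depth limits the ratios: 9 of the 26 sites had 0 control fragments, so their ratios rest on a wider window or on the genome rate.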

Other observations

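The promoter windows of the translation factor genes were rich in CpG. The 24 windows of 22 genes with a listed peak held a median of 24 CpG (11 to 42) and 66% G or C. The 46 windows of family genes without a listed peak held a median of 22.5 CpG and 61.3% G or C, those of genes with a listed TSS peak 22 CpG and 62%, and all 32851 windows 7 CpG and 52.7%. The GC box was in 23 of 33 family genes without a listed peak that had a window, the ETS motif in 12, the E-box in 11 and the NRF1 motif in 4. The CCAAT box was in 13 of the same 33, the GAS motif in 3 and the ISRE in 1.

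Of the family genes without an assigned peak, 3 had only a listed peak within 5 kb that did not come within 500 bp of their own start or, for Eif4e1b, whose distance to its start was not computed. These were peaks assigned to Tspan17 beside Eif4e1b with a fold of 3.91, to Foxred2 beside Eif3d with a fold of 4.84, and to Fgfr2 beside Eef1akmt2 with a fold of 4.88.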
